A study of Mus musculus with 34 samples.

Results

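Colonic macrophages that lack both the IL-10 receptor alpha chain and the p19 subunit of IL-23 (libraries titled IL10R_P19) were compared with control macrophages (libraries titled CX) over all named genes. The members were the 4 IL10R_P19 libraries, titled IL10R_P19_100, IL10R_P19_105, IL10R_P19_106 and IL10R_P19_107, and the 2 CX libraries, titled CX_1 and CX_3, which are 6 of the 34 libraries in the series. Values below follow the order of these titles. They stand in 1 table of 18 libraries with 5 libraries titled IL10R, 4 titled IL10R_abx and 3 titled littermate_abx, and the table lists 8816 named genes. All mice of these groups were C57BL/6 and 6 to 7 weeks old. IL10R_P19, IL10R and CX mice had no treatment, and the mice of both abx groups had antibiotics in the drinking water. Macrophages were sorted from the colonic lamina propria as CD45+ CD11b+ CD11c-intermediate CD64+ cells without Ly6c and CD103. The titles of the IL10R, IL10R_P19 and IL10R_abx libraries also carry 5C5, which the labels do not explain. Those of CX and littermate_abx do not, so whatever 5C5 stands for cannot be told apart from the receptor deficiency. The labels give neither the alleles, nor the Cre driver, nor a genotype for CX and the littermates. The model known for this work deletes Il10ra with Cre driven by Cx3cr1. Whether each library came from its own animal is not stated, so the spread behind each p-value may be technical.

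IL-10 binds a receptor whose alpha chain is encoded by Il10ra, and it acts through STAT3 to restrain the response of gut macrophages to bacteria. Mice without this receptor on their macrophages develop colitis. IL-23, made of the p19 subunit (Il23a) and the p40 subunit (Il12b), is released by activated macrophages and makes lymphocytes secrete IL-22. IL-22 in turn makes epithelial cells produce antibacterial proteins such as the Reg3 lectins. The comparison asked what still differed from control macrophages when both the receptor and p19 were missing.

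Values are read counts divided by 1 factor per library, called normalised counts here, with 1 read worth 0.508 to 0.952 in IL10R_P19 and 1.04 and 0.569 in CX. Recovered reads came to 1471395 to 2775974 in the IL10R_P19 libraries and to 1418724 and 2497055 in CX, and across the table to 747046 to 2775974. Differences are log2 of the normalised count plus 0.997, with standard error (SE), from a limma fit to all 18 libraries, and genes were called at a Benjamini-Hochberg adjusted p under 0.05. Markers of macrophages were present. Cx3cr1, the fractalkine receptor of resident gut macrophages, stood at 208, 492.9, 406 and 480 in IL10R_P19 and at 541 and 578 in CX, and Csf1r, C1qa and Fcgr1 were listed in all 6. Epithelial markers were present too, at 2.95 to 4.10% of the summed signal in IL10R_P19 and at 3.23 and 2.87% in CX, and Epcam stood at 1087 to 1229 against 1048 and 834. In bulk samples, fewer cells of a type and less RNA per cell cannot be told apart.

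IL10R_P19_100 stood apart from the other 3 IL10R_P19 libraries on the first principal component and in its share of resident macrophage markers. A principal component analysis of tested genes put 65.8% of the variance on its first axis, where it lay at -37.3, while IL10R_P19_105, IL10R_P19_106 and IL10R_P19_107 lay at -23.2, -17.9 and -18.7. The CX libraries lay at -9.75 and -11.2, and the IL10R libraries at -43.9 to -36.4. The antibiotic groups lay on the other side, IL10R_abx at 32.5 to 46.3 and littermate_abx at 44.3 to 57.6. Most of the spread on this axis thus parts the antibiotic groups from the untreated groups. On the second axis (9.08% of the variance) IL10R_P19_100 lay at -9.6, within the -15.2 to -8.48 of the other 3 IL10R_P19 libraries. Resident macrophage markers took 2.56% of the signal in IL10R_P19_100, 3.90 to 4.13% in the other 3 IL10R_P19 libraries, and 4.83 and 4.76% in CX. Values that moved most without this library are therefore also given without it.

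**Figure D1:**
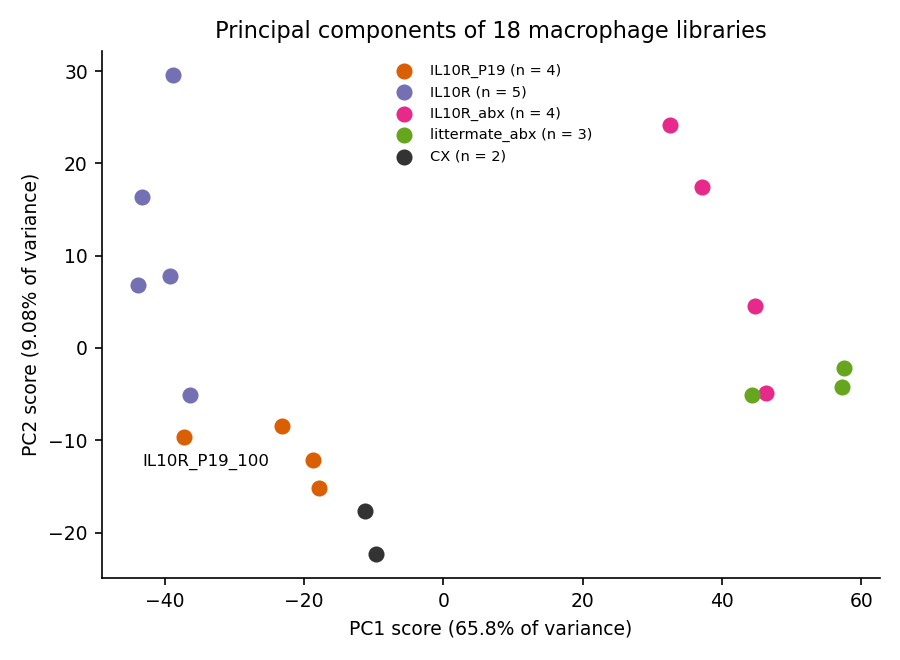
Scores of the 18 libraries on the first and second principal components of the tested genes, with the share of variance on each axis and 1 point per library. IL10R_P19_100, at -37.3 on the first component, lies with the IL10R libraries, and the other 3 IL10R_P19 libraries lie between IL10R and CX.

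IL10R_P19 and CX macrophages differed by call in only 2 genes. Of 6612 tested genes 2 were called (0.0302%), Il10ra lower and Ppfia4 higher in IL10R_P19. At an unadjusted p under 0.05 there were 333 genes (5.04%), 156 higher (2.36%) and 177 lower (2.68%). The libraries of the 2 groups did not overlap in 831 genes with IL10R_P19 higher (12.6%) and in 780 genes with IL10R_P19 lower (11.8%). By the same fit, 655 genes were called in IL10R against CX (9.91%), and in IL10R_P19 against IL10R 127 were called higher and 34 lower (2.43% together). The comparisons of IL10R_P19 and of IL10R with CX share both CX libraries.

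A small count of calls does not show that the groups were alike. The 95% confidence interval of the difference lay within a 2-fold change in both directions for 5464 of 6612 genes (82.6%), and its median reach to either side was 0.49 on the log2 scale. A fitted change of at least 2-fold was seen in 46 genes, 26 higher and 20 lower in IL10R_P19, and for 3 genes, Il10ra, Ppfia4 and Hspa8, the whole interval lay beyond 2-fold. Without CX_1, and likewise without CX_3, limma called 0 genes. These fits take the spread of the single CX library left from the other groups. At an unadjusted p under 0.05 these fits held 123 and 334 genes. Without IL10R_P19_100 both calls remained.

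Il10ra, the targeted gene, was read at 12.2, 3.81, 6.51 and 12.2 in IL10R_P19, against 248 and 284 in CX. All 4 IL10R_P19 libraries lay far below both CX libraries, as their titles say. The log2 difference was -4.90 (SE 0.64, n = 4 and 2, limma adjusted p = 0.00187). Without CX_1 it was -5.00 (adjusted p = 0.217) and without CX_3 it was -4.80 (adjusted p = 0.0758). IL10R libraries, which share the receptor deficiency, ran from 4.56 to 31.2, and littermate_abx libraries from 138 to 191. Il23a, which encodes p19, was not analysed here, so its loss was not checked in these libraries. Il12b stood at 0, 11.4, 2.60 and 4.57 in IL10R_P19 and at 3.11 and 1.71 in CX, below the filter on low values. IL10R libraries held 8.85 to 42.9 of it, so each IL10R_P19 library but IL10R_P19_105 lay below all 5 of them.

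Ppfia4, which encodes the scaffold protein liprin-alpha-4, stood at 66.96, 162, 158 and 209 in IL10R_P19, against 21.7 and 32.5 in CX. The groups did not overlap, and IL10R_P19_100 was the lowest of its group. The log2 difference was 2.33 (SE 0.35, 95% interval 1.60 to 3.06, limma adjusted p = 0.00924), and without IL10R_P19_100 it was 2.67. With only IL10R_P19 and CX in the fit the adjusted p was 0.194, and with the 3 untreated groups it was 0.187, so the call was lost without the antibiotic groups in the fit. It stood at 93.3 to 182 in IL10R and at 157 to 217 in littermate_abx, whose Il10ra was high, so both CX libraries lay below all 16 others. In the first table of the series, which has its own scaling, it stood at 487 to 592 in 3 libraries titled IL10R and at 19.6 to 51.3 in 3 titled CXhet.

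Hspa8, the constitutive heat shock cognate chaperone, showed the opposite order. It stood at 185, 224, 234 and 221 in IL10R_P19, against 1333 and 1358 in CX. Both groups were tight and far apart, with a log2 difference of -2.64 (SE 0.58, limma adjusted p = 0.335), which did not pass. IL10R_abx, part of the same fit of 18 libraries, ran from 320 to 2654. With only the 3 untreated groups in the fit, Hspa8 was called (SE 0.19, adjusted p = 5.46e-06), and with IL10R_P19 and CX alone it was called too (adjusted p = 2.54e-05). IL10R libraries held 211 to 325 and littermate_abx libraries 475 to 538, both below CX.

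**Figure D2:**
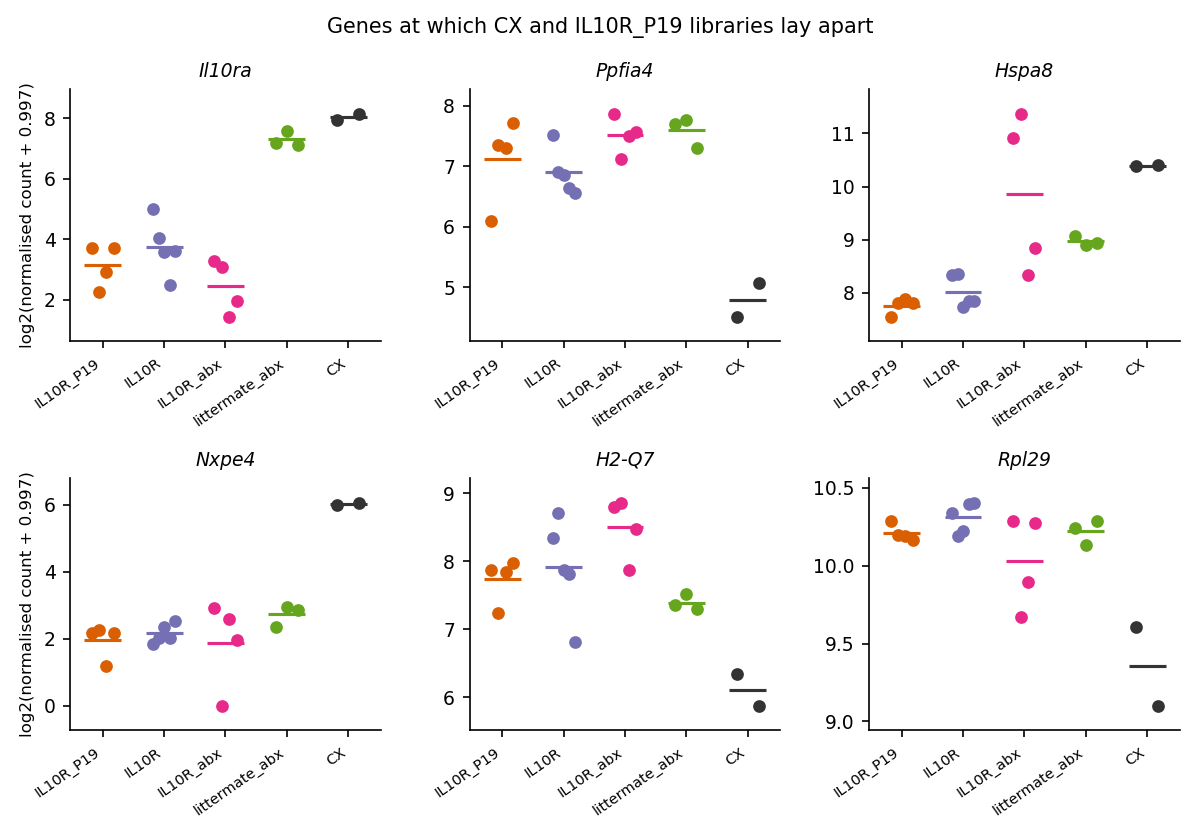
Level of 6 genes in each of the 18 libraries, as log2 of the normalised count plus 0.997, with 1 point per library and a line at the group mean. Il10ra is high in CX and littermate_abx, while Ppfia4, Nxpe4, H2-Q7 and Rpl29 set both CX libraries apart from all other libraries, and Hspa8 sets them apart from all but 2 IL10R_abx libraries.

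The other genes chosen among the highest differences did not pass. Sprr2a1, a small proline-rich protein of stressed epithelium, stood at 941, 740, 690 and 722 in IL10R_P19, against 315 and 496.5 in CX (log2 difference 0.96, SE 0.20, limma adjusted p = 0.184). Without CX_1 the difference was 0.63. Its near copy Sprr2a2 held nearly the same values, and reads of the 2 genes cannot be told apart. IL10R libraries held 964 to 1452 of Sprr2a1, so each IL10R_P19 library lay between the CX and the IL10R range. Rpl29, a protein of the large ribosomal subunit, stood at 1250, 1172, 1166 and 1149 in IL10R_P19, against 779 and 547 in CX (0.86, SE 0.18, adjusted p = 0.184). It was nearly level over the IL10R_P19 libraries and at 1166 to 1355 in IL10R. H2-Q7, a nonclassical MHC class I gene that shares its reads with H2-Q9, stood at 232, 150, 228 and 251 in IL10R_P19, against 79.7 and 57.5 in CX (1.63, SE 0.38, adjusted p = 0.335). DESeq2 on recovered reads called 9 genes in IL10R_P19 against CX. Besides Il10ra and Ppfia4, these were Sprr2a1, Sprr2a2, Rpl29, H2-Q7 and H2-Q9 higher, and Hspa8 and the sialyltransferase gene St3gal4 lower.

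Among the lower genes chosen, Dpm2, a subunit of dolichol-phosphate mannose synthase, stood at 96.5, 82.8, 98.3 and 101 in IL10R_P19, against 215 and 126 in CX (log2 difference -0.80, SE 0.20, limma adjusted p = 0.54). The 2 CX libraries were farther from each other than CX_3 was from IL10R_P19. Pltp, the phospholipid transfer protein, stood at 175, 169, 251 and 240 in IL10R_P19, against 406 and 432 in CX (-1.02, SE 0.27, adjusted p = 0.657). IL10R libraries held 98.7 to 178 of Pltp and littermates 865 to 1116. Ifitm2, an interferon-induced membrane protein that restricts virus entry, stood at 124, 143, 167 and 179 against 277 and 220 (-0.70, SE 0.19, adjusted p = 0.689). Nxpe5 stood at 72.2, 62.8, 64.5 and 74.2 against 166 and 103 (-0.93, SE 0.27, adjusted p = 0.795). Without CX_1 the differences were -0.41 for Dpm2 and -0.59 for Nxpe5. In these 4 genes every IL10R_P19 library lay below both CX libraries, as the rule that chose them asks.

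The 6 genes chosen as raised in untreated IL10R macrophages were low in IL10R_P19, and none of the 6 was called against CX. They were chosen for high IL10R values, so a level below IL10R is in part built into the choice. Their SE against CX ran from 1.00 to 1.78, so only very large differences could have been called. Reg3b, an antibacterial lectin of the intestinal epithelium, stood at 8.70, 87.5, 1.30 and 2.03 in IL10R_P19, against 1.04 and 0.57 in CX. These CX values are 1 read each, so no fold is given. IL10R libraries ran from 258 to 7459, above every IL10R_P19 library, and IL10R_P19_105 alone was above 10. Reg3g, its close relative, stood at 13.04, 26.6, 1.30 and 1.52 in IL10R_P19 and at 3.11 and 1.71 in CX, so the groups overlapped. Its 95% interval ran from -2.18 to 4.28 on the log2 scale, which leaves a large rise or fall possible. Clca4b, a regulator of chloride channels, stood at 3.48, 9.52, 3.91 and 3.05 in IL10R_P19, against a library listed at 0 and 0.57 in CX. That is 4 to 10 reads per IL10R_P19 library and at most 1 read per CX library.

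Lrg1, a leucine-rich glycoprotein made in inflammation, stood at 7.83, 8.56, 13.7 and 3.05 in IL10R_P19, against 4.14 and 3.99 in CX (log2 difference 0.73, SE 1.05, limma adjusted p = 0.931). IL10R_P19_107 lay below both CX libraries, and without IL10R_P19_106 the difference was 0.47. Nos2, the inducible nitric oxide synthase, stood at 11.3, 4.76, 2.60 and 6.10 in IL10R_P19, against a library listed at 0 and 0.57 in CX (limma adjusted p = 0.893, unadjusted p = 0.0502). Every IL10R_P19 library held 4 to 13 reads and the CX libraries 0 and 1, while IL10R ran from 16.9 to 434. In littermate_abx Nos2 was 2.11 to 3.10, close to the lowest IL10R_P19 library. Plet1, a surface protein of progenitor and regenerating epithelium, stood at 34.8, 20.9, 8.46 and 5.59 in IL10R_P19, against 10.4 and 8.54 in CX (0.52, SE 1.00, adjusted p = 0.958). IL10R_P19_100 and IL10R_P19_105 were above CX for Plet1 and the other 2 were not. Without IL10R_P19_100 its difference was 0.09, without IL10R_P19_105 0.33 and without IL10R_P19_107 0.91.

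**Figure D3:**
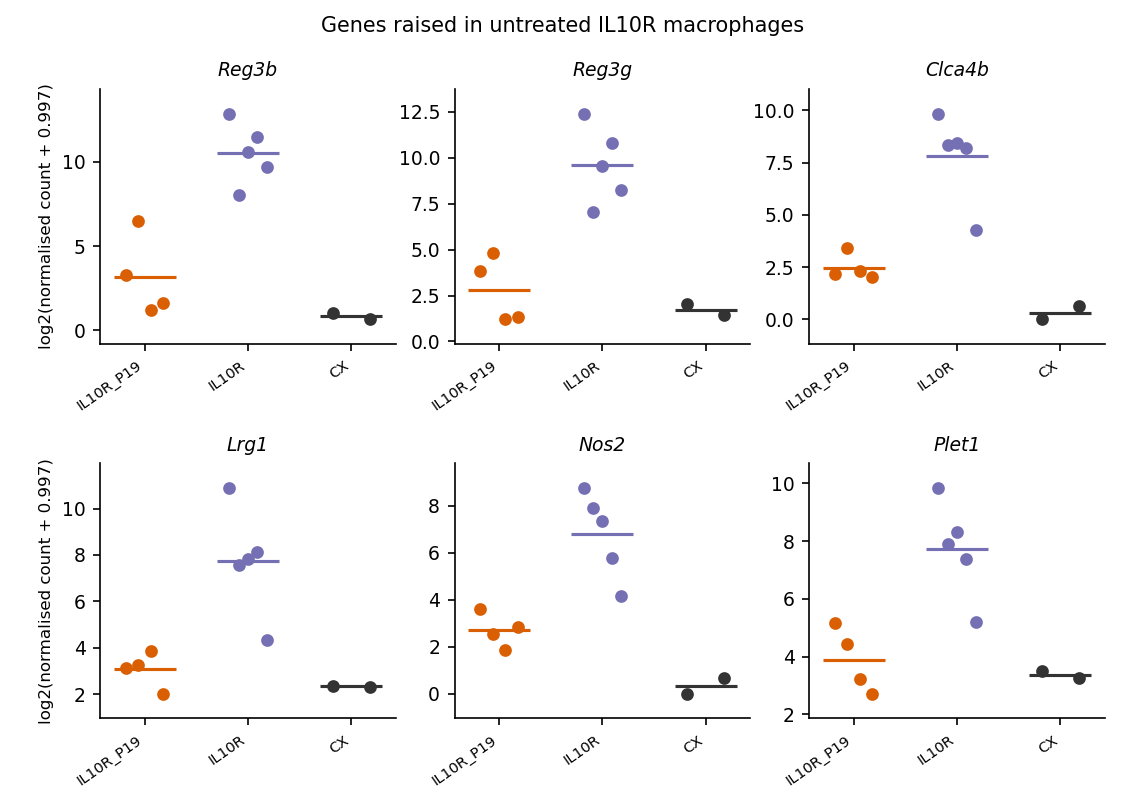
Level of 6 genes that were raised in untreated IL10R macrophages, in each IL10R_P19, IL10R and CX library, as log2 of the normalised count plus 0.997, with a line at the group mean. In each of the 6 genes all IL10R_P19 libraries lie below all IL10R libraries, which the choice of genes high in IL10R favours. The IL10R_P19 libraries overlap CX in Reg3g, Lrg1 and Plet1.

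Markers of resident macrophages were slightly lower in IL10R_P19. Of 32 tested, 30 had a fitted difference below 0. In 15 all IL10R_P19 libraries lay below both CX libraries, against 11.8% over all tested genes, and none lay above, against 12.6%. The median was -0.41, against 0.01 over all tested genes, and -0.26 without IL10R_P19_100. None was called, and 6 had an unadjusted p under 0.05, all lower, against 2.68% lower over all tested genes. Csf1r, the receptor for the macrophage growth factor CSF1, stood at 1281, 2161, 2214 and 2264 in IL10R_P19, against 2796 and 2971 in CX (log2 difference -0.58, SE 0.24, limma adjusted p = 0.893). C1qc, a chain of complement component C1q, stood at 1910, 2728, 2949 and 3519 against 4042 and 4056 (-0.58, SE 0.21, adjusted p = 0.893). In both genes IL10R_P19_100 was lowest and the other 3 were still below CX, and without it the Csf1r difference was -0.38. Without IL10R_P19_100, 1 marker of the 32 had an unadjusted p under 0.05 and was lower, and 15 were lower without overlap. Over all tested genes these shares were 1.48 and 14.7% without that library. The median in IL10R against CX was -1.17.

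Fcrls, an Fc receptor-like gene of resident macrophages, stood at 122, 153, 155 and 159 in IL10R_P19, against 396 and 440 in CX. The groups were tight, the log2 difference was -1.50 (SE 0.77, limma adjusted p = 0.893), and with only these groups in the fit it was called (adjusted p = 0.00376). IL10R libraries ran from 3.90 to 113, below every IL10R_P19 library. Mrc1, the mannose receptor, stood at 442, 443, 483 and 463 against 839 and 631 (-0.67, SE 0.36, adjusted p = 0.893).

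Lysosome and phagocytosis genes ran the same way. Of 32 tested, 29 were below 0. Without overlap 20 were lower and none higher, against 11.8 and 12.6% over all tested genes. The median was -0.31, and -0.22 without IL10R_P19_100. None was called and 7 had an unadjusted p under 0.05, all lower, against 2.68% lower over all tested genes. Ctsl, the lysosomal protease cathepsin L, stood at 364, 504, 447 and 493.2 in IL10R_P19, against 575 and 930 in CX (-0.70, SE 0.21, limma adjusted p = 0.795). Without CX_3 it differed by -0.36. Fcgr2b, the inhibitory receptor for IgG, stood at 301, 193, 255 and 267 against 453 and 371 (-0.71, SE 0.23, adjusted p = 0.875). Msr1, a scavenger receptor, stood at 112, 179, 124 and 171 against 257 and 249 (-0.81, SE 0.27, adjusted p = 0.875). IL10R_P19_100 had the lowest mean level of its group for this list and for the resident marker list, and the part of the resident marker share in these values was not tested.

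Genes of the IL-10 and STAT3 response had a median of -0.36 over 23 tested, and of -0.23 without IL10R_P19_100. Of the 23, 12 were lower and 1 higher without overlap, against 11.8 and 12.6% over all tested genes. Il10ra was the only called member. Socs3, a STAT3-induced inhibitor of cytokine signalling, stood at 285, 355, 443 and 347 in IL10R_P19, against 511 and 634 in CX (-0.69, SE 0.31, limma adjusted p = 0.893). Sbno2, a corepressor induced by IL-10, stood at 127, 140, 131 and 128 against 208 and 198 (-0.62, SE 0.24, adjusted p = 0.893). Il10 itself stood at 24.3, 34.3, 58.6 and 34.0 against 59.0 and 48.4, so the groups overlapped. Immediate-early genes, which also respond to handling of cells, had a median of -0.37 over 33 tested. Of these 4 had an unadjusted p under 0.05, all lower, against 2.68% lower over all tested genes. Without overlap 6 were lower and none higher, against 11.8 and 12.6%. The median was -0.15 without IL10R_P19_100 and -0.21 without CX_3. Without IL10R_P19_100, 1 of the 33 was lower at an unadjusted p under 0.05, against 1.48% over all tested genes.

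Interferon-gamma-inducible genes lay on the other side. Of 21 tested, 18 had a fitted difference above 0. Without overlap 11 were higher in IL10R_P19 and none lower, against 12.6 and 11.8% over all tested genes. The median was 0.63, and 0.61 without IL10R_P19_100. None was called, and 2 had an unadjusted p under 0.05, both higher, against 2.36% higher over all tested genes. Iigp1, a GTPase that attacks vacuoles of intracellular pathogens, stood at 150, 85.6, 54.7 and 125 in IL10R_P19, against 25.9 and 25.6 in CX (log2 difference 1.87, SE 0.65, limma adjusted p = 0.893). Cxcl9, a chemokine that draws T cells, stood at 328, 380, 234 and 645 against 97.3 and 170 (1.52, SE 0.69, adjusted p = 0.893). Every IL10R_P19 library was above both CX libraries in both genes.

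The MHC class I and immunoproteasome list had a median of 0.39 over 17 tested, and 0.35 without IL10R_P19_100. Of these, 15 were above 0. Without overlap 12 were higher and none lower, against 12.6 and 11.8% over all tested genes. None was called, and 6 had an unadjusted p under 0.05, all higher, against 2.36% higher over all tested genes. Tap1, which carries peptides into the endoplasmic reticulum, stood at 350, 234, 245 and 332 in IL10R_P19, against 143 and 147 in CX (0.98, SE 0.38, limma adjusted p = 0.893). H2-K1, a classical class I heavy chain, stood at 3543, 2641, 3087 and 3685 against 1753 and 2187 (0.71, SE 0.26, adjusted p = 0.893). Tap2, the partner of Tap1, stood at 114, 116, 126 and 170 against 81.8 and 84.3 (0.64, SE 0.20, adjusted p = 0.875). The interferon-gamma and class I lists shared 1 tested gene, Nlrc5, the regulator of class I transcription. Type I interferon-stimulated genes had a median of -0.13 over 20 tested, with 1 higher and 1 lower without overlap. That median was 0.03 without IL10R_P19_100 and -0.28 without IL10R_P19_107.

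In many of these genes CX was the lowest group of the table. In 6 of 21 interferon-gamma-inducible genes (28.6%) and in 6 of 17 class I genes (35.3%), both CX libraries lay below all 16 other libraries of the table, littermates included. Over all tested genes this was so in 63 of 6612 (0.953%). Batf2, Cxcl9, Ifi47, Iigp1 and Irf1 were among those of the first list, and H2-K1, H2-Q7, Psmb9, Tap1, Tap2 and Tapbp were those of the second. Littermate_abx libraries, with high Il10ra, held 209 to 247 of Tap1 and 105.6 to 161.2 of Iigp1, which overlaps the IL10R_P19 range. Littermate_abx and CX differ in antibiotics and in epithelial markers, which took 0.459 to 0.668% of the signal against 2.87 to 3.23%. The genotypes of both are not stated, so these cannot be told apart.

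**Figure D4:**
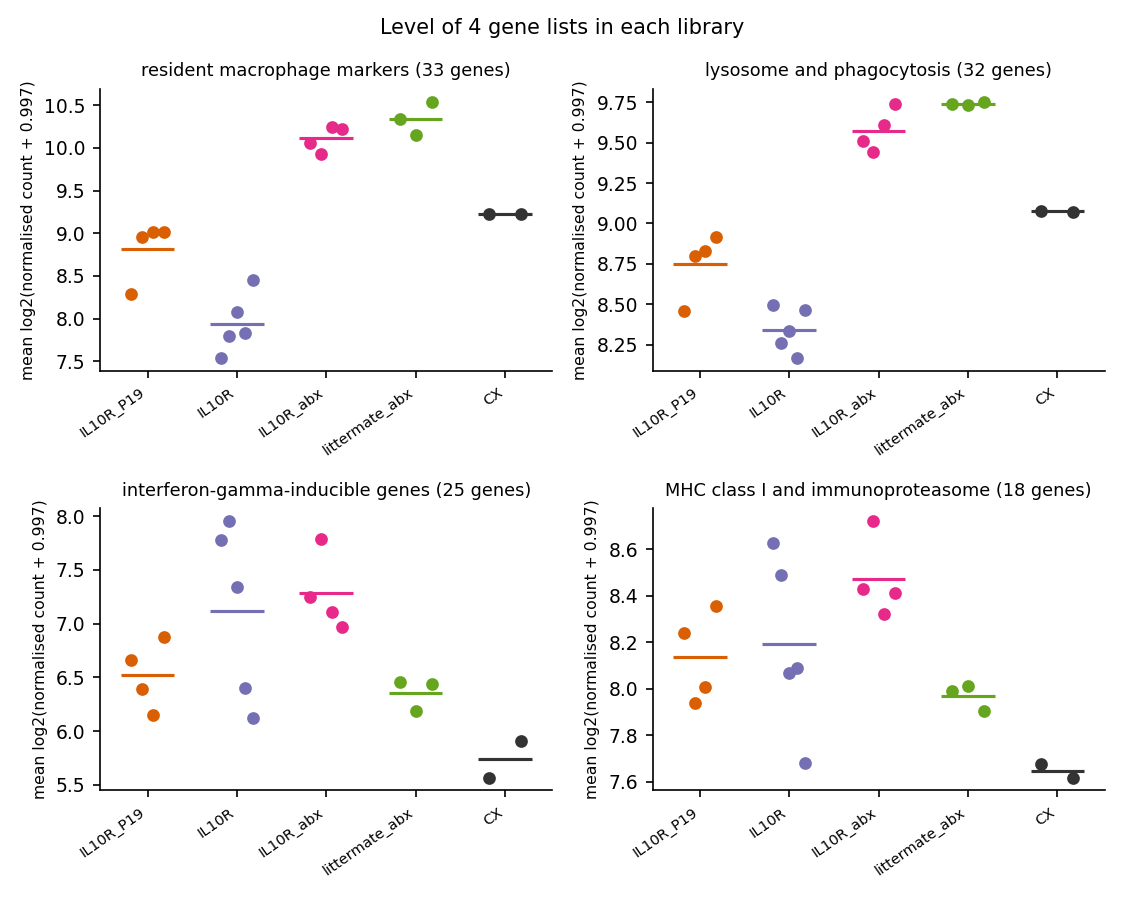
Mean over the genes of a list of log2(normalised count + 0.997) in each library, for 4 gene lists, with 1 point per library and a line at the group mean. The IL10R_P19 mean lies between IL10R and CX for resident markers and lysosome genes, and the CX mean is the lowest of the 5 groups for interferon-gamma-inducible and MHC class I genes.

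Oxidative phosphorylation genes had a median of 0.21 over 32 tested, and 0.15 without IL10R_P19_100. Of the 32, 13 were higher and 0 lower without overlap, against 12.6 and 11.8% over all tested genes. Limma called none of the 32. An unadjusted p under 0.05 was found in 3, all higher, against 2.36% higher over all tested genes, and in 0 without IL10R_P19_100. Atp5b, the catalytic beta subunit of ATP synthase, stood at 4217, 3501, 3156 and 3309 in IL10R_P19, against 2531 and 3021 in CX (0.35, SE 0.16, limma adjusted p = 0.893, and 0.22 without CX_1). The 10 tested injury-linked and defence epithelial genes had a median of 0.84 in IL10R_P19 against CX and of 4.87 in IL10R against CX. With a pseudocount of 10 the median in IL10R_P19 was 0.54, and Reg3b, Clca4b and Nos2 were at 0 or 1 read in the CX libraries. In IL10R_P19, 5 of the 10 were higher without overlap and 1 was lower, against 12.6 and 11.8% over all tested genes. Reg3b, Clca4b and Nos2 passed the filter on the mean of all libraries through their high IL10R values. The count and the median of this list therefore cannot be weighed against all tested genes. The 5 were Reg3b, Clca4b, Nos2 and Sprr2a1, with values above, and the stem cell antigen gene Ly6a, and the 1 was Anxa1, an anti-inflammatory annexin. Growth factor and matrix genes had a median of -0.23 over 27, with 8 lower without overlap, against 11.8% over all tested genes. An unadjusted p under 0.05 was found in 4, all lower, against 2.68%. Without IL10R_P19_100 the median was -0.12 and 2 had such a p. Tgfb1, which encodes the cytokine TGF-beta, stood at 85.2, 103, 146 and 111 against 191 and 159 (-0.67, SE 0.23, adjusted p = 0.881).

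Markers of other cell types showed no call. The 32 tested epithelial markers had a median of 0.05, with 1 higher and 1 lower at an unadjusted p under 0.05, and the 15 monocyte markers a median of 0.01. Without IL10R_P19_100 these medians were 0.01 and -0.07. Of the 32 epithelial markers 23 had a fitted difference above 0. Without overlap 7 were higher in IL10R_P19 and 1 lower, against 12.6 and 11.8% over all tested genes. Monocyte markers took 0.323 to 0.376% of the signal in IL10R_P19 and 0.335 and 0.348% in CX. Stromal and endothelial markers took 0.0554% in IL10R_P19_100, 0.119 to 0.147% in the other IL10R_P19 libraries, and 0.119 and 0.145% in CX. The 12 tested stromal markers had a median of -0.28, and -0.04 without IL10R_P19_100. Neutrophil markers took 0.0354 to 0.0589% against 0.0288 and 0.0458%. Of 22 T and NK cell markers 2 were listed and none passed the filter. With the epithelial score as a covariate, Il10ra and Ppfia4 were called as before.

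**Figure D5:**
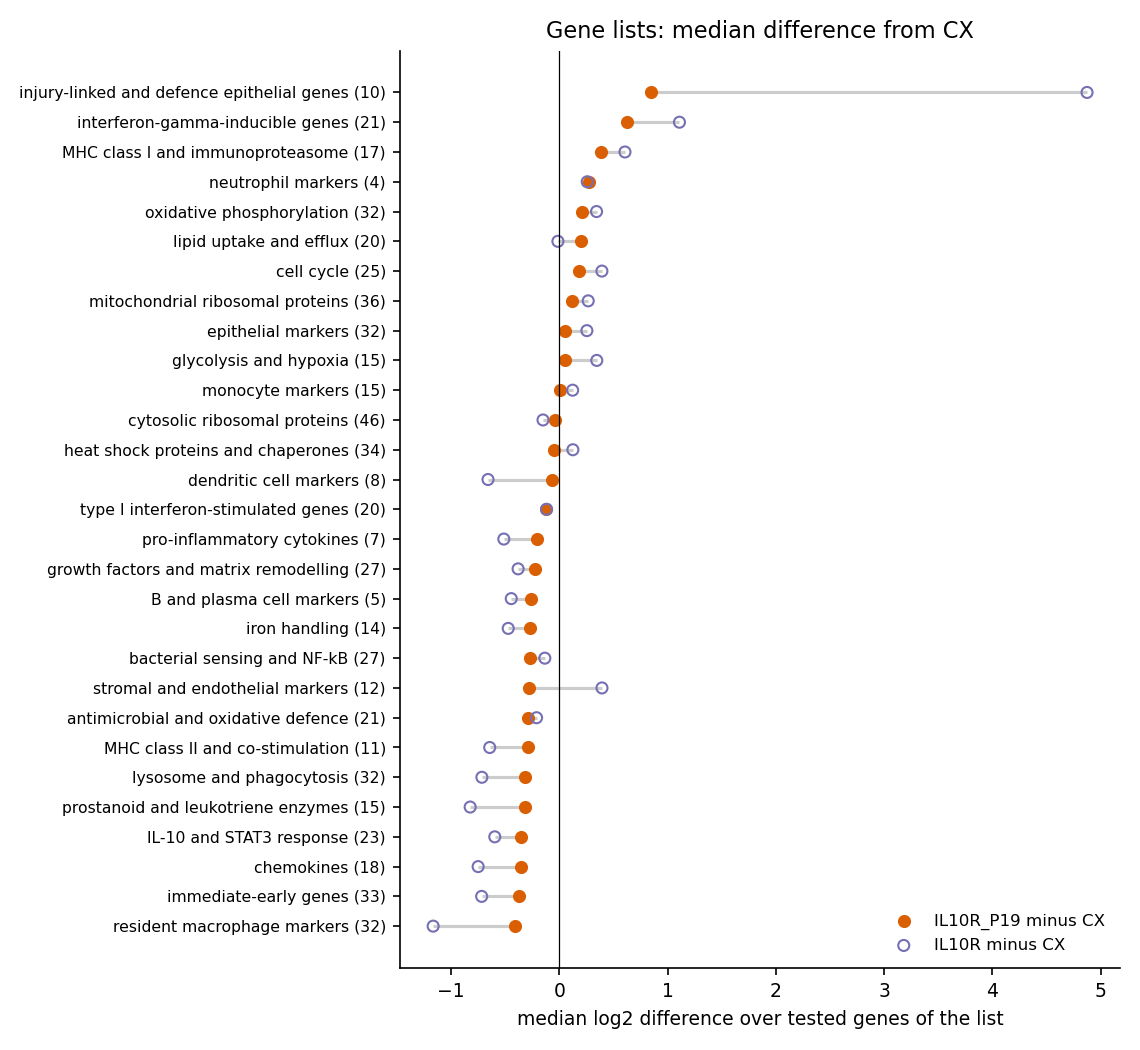
Median log2 difference over the tested genes of 29 lists, with the number of tested genes in brackets. Filled points give IL10R_P19 minus CX and open points IL10R minus CX, and both use the same 2 CX libraries. The filled points run from -0.41 for resident macrophage markers to 0.84 for injury-linked and defence epithelial genes, which is 0.54 with a pseudocount of 10.

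Genes called in the first table were followed into the rescue table, since no library is shared. There 588 of 6766 genes were called in the libraries labelled IL10R against CXhet (8.69%), and the library labelled IL10R 2 held 361 of Il10ra, beside 371 to 689 in CXhet. Of the 309 genes higher there, 234 were tested here. Their median difference was 0.11 in IL10R_P19 against CX, 0.33 in IL10R against CX, and 0.01 over all genes tested in both tables for each. Of the 234, 64 were higher without overlap in IL10R_P19 (27.4%) and 17 lower (7.26%), against 12.6 and 11.7% over all genes tested in both. Their mean log2 level was 6.66, 6.72, 6.66 and 6.91 in IL10R_P19 and 6.51 and 6.59 in CX, and it ran from 6.61 to 7.77 in IL10R. All 4 IL10R_P19 libraries lay above CX and within the IL10R range, whose low end rests on IL10R_68 alone. The next IL10R library stood at 6.89, above each IL10R_P19 library but IL10R_P19_107.

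Of the genes lower in the first table, 269 were tested here besides Il10ra. Their median difference was -0.12 in IL10R_P19 against CX and -0.54 in IL10R against CX. Without overlap 54 were lower in IL10R_P19 (20.1%) and 21 higher (7.81%). Their mean log2 level was 7.16, 7.37, 7.47 and 7.34 in IL10R_P19 and 7.47 and 7.49 in CX, and it ran from 6.14 to 7.24 in IL10R. IL10R_P19_100 lay within the IL10R range and the other 3 above it. The high end of that range rests on IL10R_68 alone, and the next IL10R library stood at 6.995, below every IL10R_P19 library. Without IL10R_P19_100 the medians were 0.14 for the higher genes and -0.06 for the lower genes.

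Genes near Il10ra on chromosome 9 were examined after their values were seen. Of the 80 nearest tested genes in the RefSeq gene order, 40 on each side, 10 had an unadjusted p under 0.05 (12.5%), against 14 of 270 elsewhere on the chromosome (5.19%) and 4.93% of the 6531 tested genes outside these 80 and Il10ra. Lower in IL10R_P19 were St3gal4, Hspa8 and Amica1, which lie 34, 22 and 2 tested genes before Il10ra, and Pstpip1, 28 after it, with log2 differences of -1.60, -2.64, -0.82 and -1.12. The other 6 were higher, Tbrg1, Sorl1 and H2afx before Il10ra and Fxyd2, Dlat and Mpi after it, by 0.44 to 1.30. Non-overlapping libraries were found in 24 of the 80 genes (30%), in 27% of the 270 and in 24.3% of those 6531. Of the 20 nearest genes 2 had such a p (10%), and 20% did not overlap. Of the 40 nearest 5 had such a p (12.5%), and 22.5% did not overlap. In IL10R_P19 against IL10R, which both lack the receptor, 23.8% of the same 80 genes had an unadjusted p under 0.05, against 16.5% of those 6531. In IL10R_abx against littermate_abx, which holds no CX library, these shares were 23.8 and 15%.

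Among all 8816 listed genes, both CX libraries lay above all 16 others in 45, and 7 of these 45 (15.6%) are on chromosome 9, which holds 5.47% of the listed genes. Il10ra is 1 of the 7, and besides it the count was 6 of 44 (13.6%). Nxpe4, below the filter, was the plainest. It stood at 3.48, 3.81, 1.30 and 3.56 in IL10R_P19, against 62.1 and 65.5 in CX, and at no more than 6.77 in any other library. The littermate_abx libraries held 4.13 to 6.77. Epithelial markers took 0.459 to 0.668% of the signal in littermate_abx and 0.537 to 0.842% in IL10R_abx. They took 2.59 to 4.17% in IL10R, 2.95 to 4.10% in IL10R_P19 and 2.87 to 3.23% in CX. The part of this share in the genes with CX apart was not tested. St3gal4 stood at 60.0, 39.0, 33.9 and 27.9 in IL10R_P19 and at 116 and 123 in CX (log2 difference -1.60, SE 0.39, limma adjusted p = 0.422), with 42.3 to 47.4 in littermate_abx. Amica1, an adhesion molecule of leukocytes, stood at 156, 380, 285 and 305 against 420 and 532 (-0.82, SE 0.26, adjusted p = 0.875). In 76 genes both CX libraries lay below all 16 others, and 4 of these (5.26%) are on chromosome 9. The part of chromosome position in these differences was not tested.

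The difference from control was set against that of the antibiotic pair, which shares no library with it. In IL10R_abx against littermate_abx 2 of 6612 genes were called (0.0302%), Il10ra lower and the guanylate-binding protein gene Gbp2b higher. The difference between the 2 differences was called in 0 genes by limma and 175 had an unadjusted p under 0.05, while DESeq2 called 3, Ppfia4 and Rpl29 in the higher and Hspa8 in the lower direction. Without IL10R_P19_100 limma called Ppfia4 (2.75, SE 0.35, adjusted p = 0.00165), and without IL10R_abx_495 it called Hspa8 (-4.05, SE 0.62, adjusted p = 0.0428). Gbp2b stood at 151, 170, 196 and 235 in IL10R_P19, against 92.2 and 184 in CX (0.51, SE 0.28, adjusted p = 0.893), so the groups overlapped there. Without CX_1 the Gbp2b difference was 0.01 and without CX_3 it was 1.00.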

How the data were processed

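Per the labels' protocols, polyadenylated RNA of sorted macrophages was amplified by in vitro transcription and sequenced. Tools of the authors, per the submitters' processing notes, were bcl2fastq, HISAT 0.1.6 and HOMER, with build mm9. The sources used here give no roles, annotation or strand use. The deposited signal values are normalised counts: within a library, 100% were whole multiples of 1 read's worth (tolerance 0.01 read). Rows with no name held no number. Genes in the lower quartile of the mean (up to 40.4) were removed, leaving 6612 of 8816. In the first table (pseudocount 1.31) 6766 of 9022 remained. Because the values are normalized, limma 3.58.1 (R 4.3.3, trend, robust) on log2(value + pseudocount) was the main test, which understates changes of low genes; the design had named edgeR for counts. edgeR 4.0.16 and DESeq2 1.42.0 were run on recovered reads. The fits were tested on simulated data. Replicate libraries differed beyond counting noise (smallest chi-square per degree of freedom 3.58). Chromosomes and gene order come from RefSeq, for 6597 of the tested genes.

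The members and the 31 gene lists were chosen with earlier results of these data known. Genes named are Il10ra and Il12b, 6 genes raised in IL10R, and called genes above the median level (99.4) without overlapping libraries, filled up to 5 per direction by smallest p. Predicted, antigen receptor and sex-linked genes were left out. Some other genes are not reported here. List members, neighbours of Il10ra and genes with CX apart were named after their values were seen. A group of 2 libraries limits every comparison with CX.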

Additional observations from a re-analysis of the deposited data

How the results depend on the processing

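In IL10R_P19 against CX, 2 genes were called under a pseudocount of 10, TMM scaling, edgeR, limma without robust variances, the epithelial covariate and without each IL10R_P19 library, each time Il10ra and Ppfia4. With all genes below the median level removed 1 was called (Ppfia4, since Il10ra falls under that filter), without a filter 3 (S100g higher as well), with DESeq2 9, and with IL10R_P19 and CX alone 6. These 6 were Il10ra, Hspa8 and Fcrls lower and H2-Q7, H2-Q9 and Upp1 higher. With the 3 untreated groups 2 were called, Il10ra and Hspa8. Leaving out 1 library gave 0 to 2 calls, with 0 only without a CX library. Of 270 pairs of a named gene and a setting, 256 kept direction and side of the threshold, 6 lost a call, 8 gained 1 and 0 turned direction. Changing the filter, the robust variances or the groups in the fit leaves a gene's fitted difference as it was. Direction could not turn in those settings. The cause of the lost and gained calls was not tested.

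IL10R against CX had 655 calls, 1101 with DESeq2, 1159 with the 3 untreated groups and 20 to 741 leaving out 1 library (20 without CX_1, 94 without CX_3, 413 without IL10R_32). IL10R_P19 against IL10R had 127 higher and 34 lower calls, and in all 287 with edgeR, 450 with DESeq2, 315 with the 3 untreated groups and 17 to 377 leaving out 1 library (17 without IL10R_P19_107, 377 without IL10R_P19_100). IL10R_abx against littermate_abx had 2, 1 with genes below the median level removed, 39 with DESeq2 and 2 to 385 leaving out 1 library (385 without IL10R_abx_497). The difference of the 2 differences had 0 calls, 3 with DESeq2, 1 (Hspa8) without IL10R_abx_160 and IL10R_abx_161 together, a setting chosen after seeing the data, and 0 to 1 leaving out 1 library. The first table had 588 calls, 947 with DESeq2, 200 to 588 leaving out 1 library and 808 with a replicate block. Numbers there name libraries only, and the CX and IL10R_P19 libraries share no replicate number, so no paired fit was possible between them. The medians of the resident, lysosome, interferon-gamma and MHC class I lists kept their sign in all 17 settings, which include the main fit. The settings without a filter, without robust variances and with fewer groups repeat the differences of the main fit. No sign could turn in those.

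Depth limits low genes: 3 reads are worth 1.52 to 2.85 in IL10R_P19 and 3.11 and 1.71 in CX, so differences in Reg3b, Clca4b and Nos2 rest on a few reads. With 2 CX libraries, 1 library decides each call of IL10R_P19 against CX.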

Other observations

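Other gene groups showed smaller or mixed differences, and limma called none of their members apart from the genes named above. Of 18 tested chemokines the median log2 difference between IL10R_P19 and CX was -0.36. Without overlap 6 were lower and 1 higher, against 11.8 and 12.6% over all tested genes. Without IL10R_P19_100 the median was -0.23. Ccl2, which draws monocytes, stood at 69.6, 81.8, 85.3 and 86.4 in IL10R_P19 and at 151 and 149 in CX (-0.89, SE 0.36, limma adjusted p = 0.893). Ccl3 and Ccl4, which also draw leukocytes, had differences of -1.10 and -1.11, or -0.59 and -0.63 without IL10R_P19_100, and Cxcl9 ran the other way. MHC class II and co-stimulation genes had a median of -0.29 over 11, and of -0.09 without CX_1. H2-Ab1, a class II beta chain, stood at 7477, 6352, 5703 and 11795 in IL10R_P19 and at 16292 and 11497 in CX, so the groups overlapped.

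Lipid genes had members on both sides. Abca1, a cholesterol exporter, differed by -1.28 and Apoe, a lipid carrier, by -0.56 (-0.33 without IL10R_P19_100), while Lpl, the lipoprotein lipase, differed by 0.62. Of 34 tested chaperone genes the median was -0.05, with 2 higher and 6 lower without overlap, against 12.6 and 11.8% over all tested genes. Leaving out 1 library, this median ran from -0.16 to -0.0019. Dnaja2, a co-chaperone of Hsp70 proteins, stood at 247, 205, 197 and 201 in IL10R_P19 and at 141 and 163 in CX (0.48, SE 0.17, limma adjusted p = 0.893). Cytosolic ribosomal protein genes had a median of -0.04 over 46, and of 0.06 without CX_1 and -0.20 without CX_3. The monocyte list had members on both sides, 8 above 0 and 7 below. Without overlap 2 of 15 were higher and 1 lower, against 12.6 and 11.8% over all tested genes. Of its higher members, Cd177 stood at 269, 186, 169 and 172 in IL10R_P19 and at 105.6 and 62.1 in CX (1.26, SE 0.41, adjusted p = 0.875). Cd300lf, a low gene, stood at 22.6, 16.2, 16.9 and 29.97 against 6.21 and 7.401. Iron handling genes had a median of -0.27. The prostanoid list had -0.32 (-0.13 without IL10R_P19_100 and also without CX_3), the bacterial sensing list -0.28 (-0.16 without IL10R_P19_100) and the antimicrobial list -0.29 (-0.10 without IL10R_P19_100, -0.13 without CX_3). The cell cycle list had 0.18 (0.04 without IL10R_P19_100, 0.35 without IL10R_P19_106, 0.40 without CX_1, 0.09 without CX_3) and the mitochondrial ribosomal list 0.12 (0.03 without IL10R_P19_100, 0.18 without IL10R_P19_106). The glycolysis list had 0.05, -0.04 without CX_1 and 0.20 without CX_3.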
